A study of Mus musculus with 12 samples.

Results

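The integrin and laminin genes of the mouse were taken by symbol: every gene named as an integrin α chain (Itga), an integrin β chain (Itgb) or a laminin α, β or γ chain (Lama, Lamb, Lamc). They number 37 of the 55487 genes in the count table, with 18 integrin α, 8 integrin β, 5 laminin α, 3 laminin β and 3 laminin γ genes. RNA was measured by bulk sequencing of embryoid bodies, aggregates in suspension culture, grown from epiblast stem cells (EpiSCs, primed pluripotent cells) that had been derived from embryonic stem cells in vitro. All 12 libraries come from cells that carry a FLAG-tagged Mixl1 gene inducible by doxycycline (Dox). Dox at 1 µg/mL was given to D1Dox_d2, harvested on day 2, and to D3Dox_d4, harvested on day 4, while NoDox_d2 and NoDox_d4 were harvested on the same days without Dox, with 3 libraries in each group. What the D number of a group stands for, which promoter drives the transgene and whether the cells are a clone is not given in the labels. No cells without the transgene received Dox, so the effect of the drug and that of Mixl1 cannot be told apart. Nothing in the labels makes the replicates separate cultures, and the p-values here rest on the spread among libraries, which may be technical.

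Integrins are receptors in the cell membrane that pair an α with a β chain and tie the cytoskeleton to the matrix outside the cell. Laminins are trimers of an α, a β and a γ chain that assemble into the basement membrane, the sheet on which epithelia such as the epiblast rest. At the primitive streak, where Mixl1 is expressed in the mouse embryo, epiblast cells cross a breached basement membrane and meet a fibronectin-rich matrix. Laminins are bound mainly by integrins with the α3, α6 or α7 chain, fibronectin mainly by those with α5, αv or α4.

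Libraries held 24100487 to 28020036 counts. Mixl1 stood at 362 to 392 CPM (library-scaled counts) in D1Dox_d2 and 417 to 478 CPM in D3Dox_d4, against 0.593, 1.15 and 91.0 CPM in NoDox_d2 and 1.11 to 1.83 CPM in NoDox_d4. The 91.0 CPM belong to the library labelled NoDox_d2 replicate 1, which goes against its label. Replicate 1 also stood apart in both NoDox groups: its correlations with the others across genes were 0.953 to 0.957, against 0.988 and 0.989 for the other pairs of those groups, so results are also given without both of these libraries. Of the 6 primed epiblast markers none was at 0 in any group, with summed levels of 389 to 418 CPM in D1Dox_d2, 704 to 975 CPM in NoDox_d2, 129 to 149 CPM in D3Dox_d4 and 238 to 317 CPM in NoDox_d4. In these bulk samples fewer cells of a type and less RNA per cell cannot be told apart.

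Levels are given as RPKM, TMM-scaled CPM divided by the gene-model length in kilobases, which allows genes to be compared. Itgb1, the β chain that most integrins share, was the most abundant member in every group, with a mean of 147 ± 10.1 RPKM in D1Dox_d2, 117 ± 2.48 in NoDox_d2, 94.0 ± 3.29 in D3Dox_d4 and 92.3 ± 9.20 in NoDox_d4 (SD, n = 3 each). Lamc1, the common laminin γ chain, was next in D1Dox_d2 at 63.5 ± 6.48 RPKM (SD, n = 3), and its spread overlapped that of Itga5 at 57.4 ± 3.06 RPKM (SD, n = 3). The next members in D1Dox_d2 were Itgb5 at 40.7 ± 2.44 RPKM and Lamb1 at 33.2 ± 1.64 RPKM, and Lama5, Itga3 and Itga6, at 20.5 ± 2.24, 20.0 ± 2.12 and 18.9 ± 1.01 RPKM, did not differ beyond their spread (SD, n = 3 each). A mean of at least 10 RPKM was reached by 10 members in D1Dox_d2 and by 7 in each of the other groups. Every group held RNA for the laminin chains Lama5, Lamb1 and Lamc1 and for laminin receptor chains (Itga6, Itga3, Itgb1). Lamb1 was not the leading laminin β chain in every library: its ratio to Lamb2 RPKM was 0.895 and 0.812 in NoDox_d4 replicates 2 and 3.

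**Figure D1:**
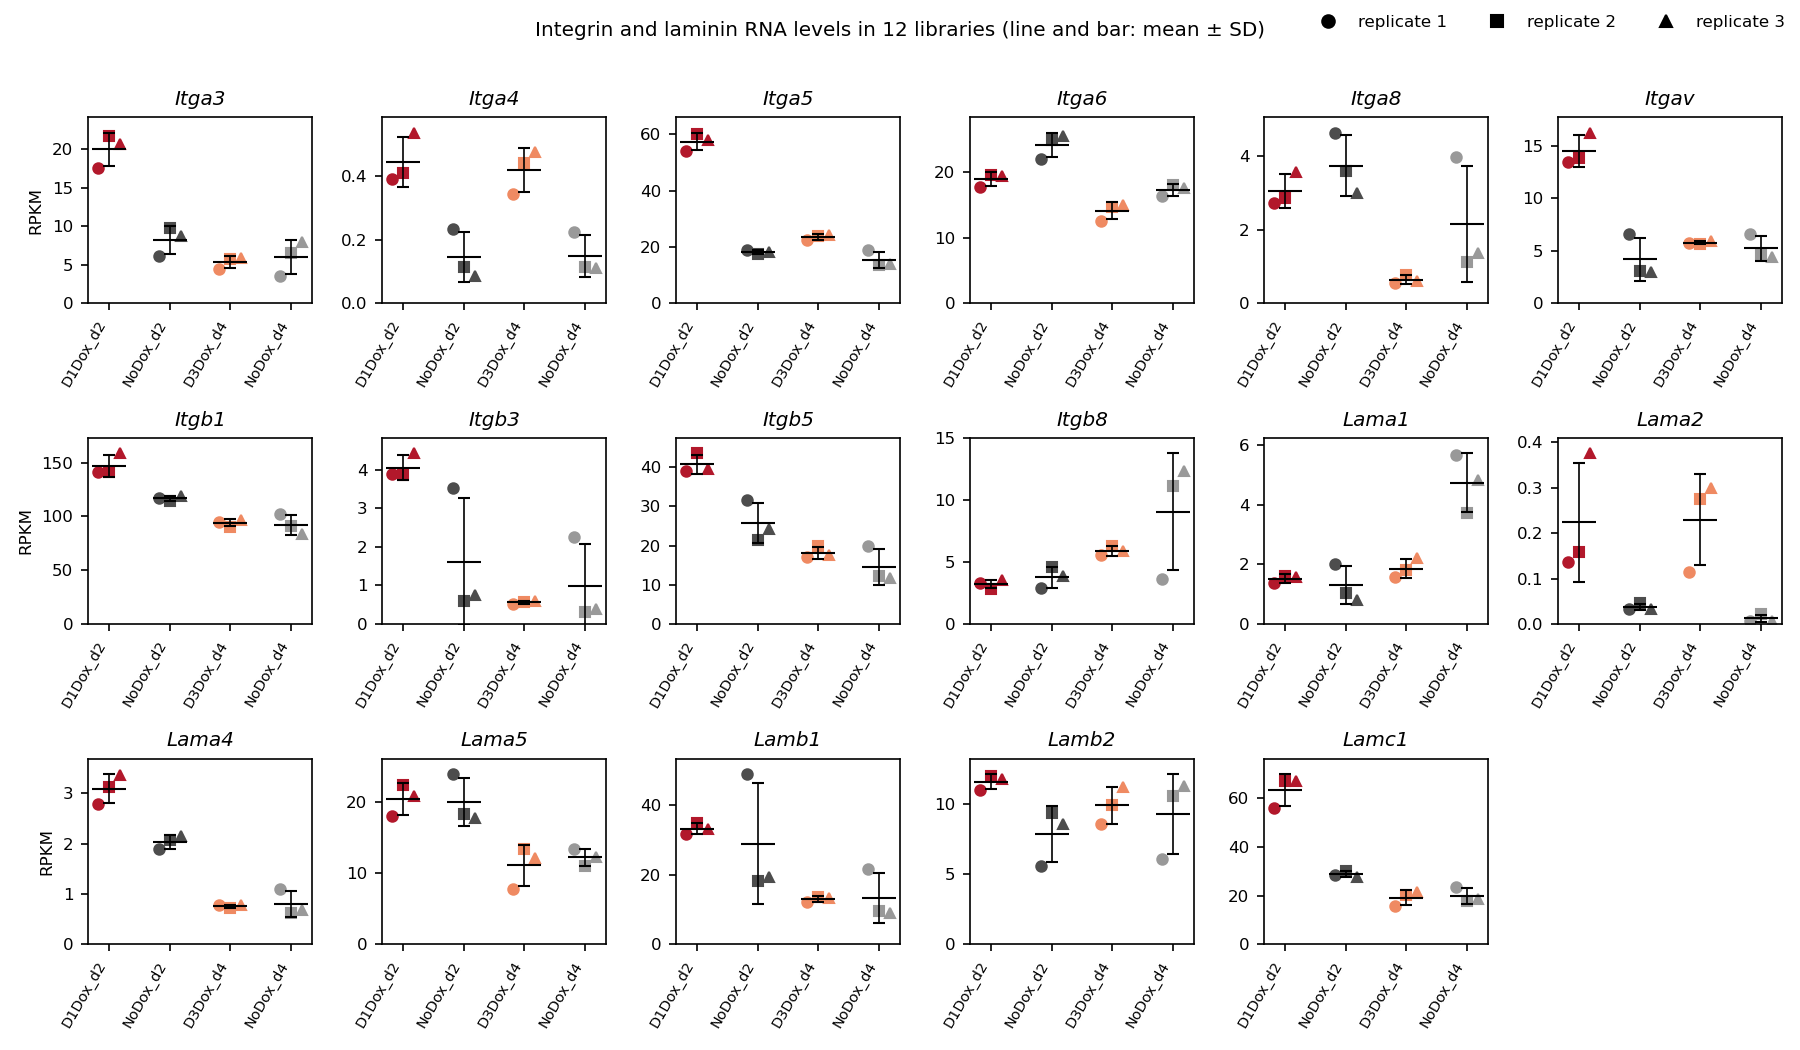
Level of 17 integrin and laminin genes in each library (RPKM, linear axis from 0), by group; points are libraries, with the marker giving the replicate number, and the line and bar are the mean and SD of 3 libraries. Itga5, Itgav, Itga3 and Lamc1 lie higher in all D1Dox_d2 libraries than in any NoDox_d2 library, while replicate 1 of the NoDox groups stands apart for Itgb3, Lamb1 and Itgb8.

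At day 2 the integrin and laminin genes moved mostly upward with Dox. A gene was called at an edgeR quasi-likelihood adjusted p under 0.05, with the adjustment over all 18109 genes tested. Of the 37 members, 35 passed the filter on low counts, and 15 of them rose and 1 fell in D1Dox_d2 against NoDox_d2, where 14.9% of all genes tested rose and 13.4% fell (28.4% either way). The median log2 fold change of the 35 was 0.66, against -0.03 over all genes tested. By chain, 10 of 24 integrins and 5 of 11 laminins rose, with 6 integrin α, 4 integrin β, 3 laminin α and no laminin β genes among them. Without both NoDox libraries numbered 1, 25 members rose and 2 fell, beside 26.8% and 26.4% of 18613 genes (53.2% either way). The median of the members was then 0.90.

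**Figure D2:**
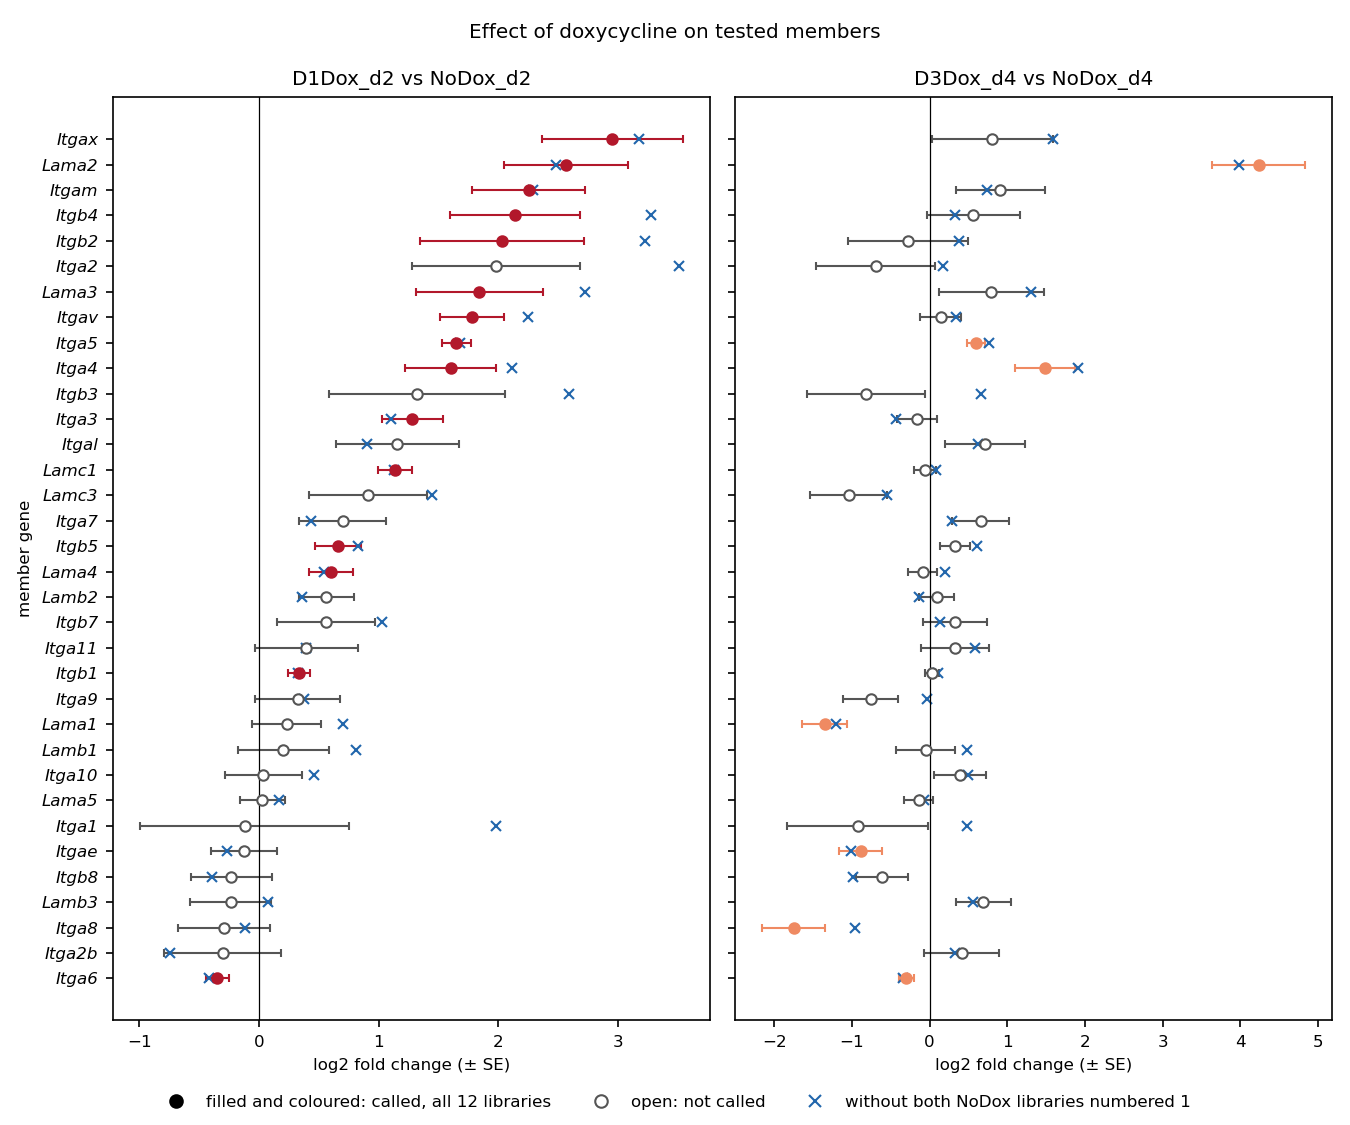
Log2 fold change with its SE for 34 tested members, D1Dox_d2 against NoDox_d2 on the left and D3Dox_d4 against NoDox_d4 on the right; filled points are called at an adjusted p under 0.05, open points are not, and crosses give the fold change without both NoDox libraries numbered 1. At day 2 most points lie right of 0, while at day 4 they lie on both sides of 0.

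Among the receptor chains, Itga5, which pairs with Itgb1 to form the main fibronectin receptor, had the steadiest rise. It stood at 54.1, 60.2 and 57.8 RPKM in D1Dox_d2, against 19.1, 17.5 and 18.2 RPKM in NoDox_d2. No library of either group reached the other's range, and the fold was 3.14 (log2 fold change 1.65 ± 0.12, SE, edgeR adjusted p = 3.34e-06). Itgav, the αv chain of receptors for vitronectin, fibronectin and latent TGF-β, stood at 13.5, 13.8 and 16.2 RPKM in D1Dox_d2, against 6.58, 3.06 and 3.001 RPKM in NoDox_d2. All D1Dox_d2 libraries were above all NoDox_d2 libraries, of which replicate 1 was the highest, and the log2 fold change was 1.78 ± 0.27 (SE, edgeR adjusted p = 0.000683), or 2.25 without both NoDox libraries numbered 1. Itga4, whose chain binds fibronectin and Vcam1, was low: 0.390, 0.410 and 0.536 RPKM in D1Dox_d2, against 0.235, 0.116 and 0.0878 RPKM in NoDox_d2. Its groups do not overlap either, with a log2-scale change of 1.60 ± 0.38 (SE; edgeR adjusted p = 0.00987).

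The 250 bases before a RefSeq start are shown to give sequence context (RefSeq, GRCm38.p6, 5′ to 3′ on the strand of the gene). They are given for Itga5 and Itgav, 2 of the RGD-binding α chains, and for Lama2, the member with the largest called log2 fold change at day 4. Capitals mark GGGCGG, the GC box letters, read on either strand. Itga5 is at chr15:103366792-103367041 on the minus strand, Itgav at chr2:83724147-83724396 on the plus strand and Lama2 at chr10:27616943-27617192 on the minus strand. The Lama2 window lies inside the gene model used for counting, whose 5′ end is at 27619758, so it precedes an internal start of that model.
Itga5: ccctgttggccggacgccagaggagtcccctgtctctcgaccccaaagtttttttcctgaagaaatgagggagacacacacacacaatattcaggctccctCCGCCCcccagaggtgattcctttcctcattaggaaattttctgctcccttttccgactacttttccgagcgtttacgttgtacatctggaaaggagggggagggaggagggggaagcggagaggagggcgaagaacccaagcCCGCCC
Itgav: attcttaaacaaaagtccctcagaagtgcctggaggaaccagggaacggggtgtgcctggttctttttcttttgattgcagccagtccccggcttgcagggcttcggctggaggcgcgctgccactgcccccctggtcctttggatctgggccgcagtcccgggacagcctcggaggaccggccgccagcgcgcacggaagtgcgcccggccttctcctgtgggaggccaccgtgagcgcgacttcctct
Lama2: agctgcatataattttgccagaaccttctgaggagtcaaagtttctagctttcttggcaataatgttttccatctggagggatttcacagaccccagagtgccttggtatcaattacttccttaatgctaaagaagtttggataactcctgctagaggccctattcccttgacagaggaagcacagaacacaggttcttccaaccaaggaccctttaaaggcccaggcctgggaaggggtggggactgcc
The Itga5 window holds 2 matches to GGGCGG and the windows of Itgav and Lama2 hold 0. RefSeq windows were matched for 23 members, 26 windows in all. GGGCGG on either strand was in 9 of the 26 (34.6%) and in 7 of the 10 windows (70.0%) of the 9 matched members that rose at day 2, against 32.7% of all 32851 windows. The median GC content was 58% in the member windows and 52.4% in all windows, and its part in the GGGCGG share was not tested. TAATTA, a core homeodomain motif, was in 0 of 26 windows against 4.84% of all, and TAATNNNATTA, a paired homeodomain motif, was in 0 of 26 against 0.463%. TGANTCA, the AP-1 motif, was in 1 of 26 (3.85%), that of Itgax, against 6.75% of all. A match describes the letters of the window only.

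The laminin receptor chains went both ways. Itga3 stood at 17.6, 21.7 and 20.7 RPKM in D1Dox_d2, against 6.20, 9.79 and 8.70 RPKM in NoDox_d2. It was higher in every D1Dox_d2 library, with a log2-scale change of 1.28 ± 0.26 (SE; edgeR adjusted p = 0.00379). Itga6, the α6 chain that pairs with Itgb1 or Itgb4, was the only member that fell at day 2 with all libraries: 17.8, 19.6 and 19.5 RPKM in D1Dox_d2, against 22.0, 24.8 and 25.5 RPKM in NoDox_d2. Without overlap, the change is small (log2 fold change -0.35 ± 0.10, SE, edgeR adjusted p = 0.0192), and the adjusted p was 0.0632 to 0.0759 when D1Dox_d2 replicate 1, NoDox_d2 replicate 2 or NoDox_d2 replicate 3 was left out. Itga7, another laminin receptor chain, stood at 2.10, 1.83 and 1.96 RPKM in D1Dox_d2, against 0.737, 1.39 and 1.51 RPKM in NoDox_d2, and was not called (log2 fold change 0.70 ± 0.37, SE, edgeR adjusted p = 0.176). The ratio of Itga5 to Itga6 RPKM was 2.97 to 3.08 in D1Dox_d2, against 0.704 to 0.867 in NoDox_d2.

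Itga8, whose chain pairs with Itgb1 to bind nephronectin, was not called at day 2: 2.73, 2.87 and 3.59 RPKM in D1Dox_d2, against 4.63, 3.59 and 3.01 RPKM in NoDox_d2. These groups overlap. The collagen receptor chains Itga1, Itga2, Itga10 and Itga11 stayed under 1 RPKM in every library and none was called by edgeR with all libraries. Itga1 shows how much replicate 1 weighs: 0.297, 0.337 and 0.359 RPKM in D1Dox_d2, against 0.909, 0.0765 and 0.0900 RPKM in NoDox_d2. Its log2 fold change was -0.12 ± 0.88 (SE, edgeR adjusted p = 0.937) with all libraries and 1.98 ± 0.24 (SE, edgeR adjusted p = 9.91e-06) without both NoDox libraries numbered 1.

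Among the β chains, Itgb1 stood at 141, 141 and 158 RPKM in D1Dox_d2, against 117, 114 and 119 RPKM in NoDox_d2. All D1Dox_d2 values are higher (log2 fold change 0.33 ± 0.09, SE, edgeR adjusted p = 0.0201). Itgb5, a partner of αv, stood at 39.1, 43.5 and 39.5 RPKM in D1Dox_d2, against 31.6, 21.4 and 24.3 RPKM in NoDox_d2, also without overlap (log2 fold change 0.66 ± 0.20, SE, edgeR adjusted p = 0.0265). Both calls were lost when some libraries were left out, with adjusted p of 0.0584 to 0.0975 for Itgb1 and 0.0604 to 0.105 for Itgb5. Itgb3, the other common αv partner, stood at 3.89, 3.86 and 4.43 RPKM in D1Dox_d2, against 3.52, 0.589 and 0.750 RPKM in NoDox_d2. With all libraries it was not called (log2 fold change 1.32 ± 0.73, SE, edgeR adjusted p = 0.200), and without both NoDox libraries numbered 1 it was called at a log2 fold change of 2.59. Itgb8, an αv partner that binds latent TGF-β, stood at 3.29, 2.84 and 3.55 RPKM in D1Dox_d2, against 2.91, 4.59 and 3.86 RPKM in NoDox_d2, and was not called (edgeR adjusted p = 0.647).

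Itgb4, which pairs only with Itga6 in hemidesmosomes, was low: 0.810, 0.806 and 1.04 RPKM in D1Dox_d2, against 0.418, 0.0902 and 0.0901 RPKM in NoDox_d2. It was higher in every D1Dox_d2 library, with a log2-scale change of 2.14 ± 0.55 (SE; edgeR adjusted p = 0.0135), and 3.27 without NoDox_d2 replicate 1. Without NoDox_d2 replicate 3 its adjusted p was 0.0529. The surface epithelium markers summed to 679 to 839 CPM in D1Dox_d2, against 244 to 576 CPM in NoDox_d2, with 3 of 5 tested markers higher, 1 lower and none of the 6 at 0. Most of that sum is Krt8 (334 to 407 CPM in D1Dox_d2, 85.1 to 232 CPM in NoDox_d2) and Krt18 (299 to 382 and 79.6 to 179 CPM). Tfap2c was lower, at 42.2 to 46.4 CPM in D1Dox_d2, against 78.8 to 162 CPM in NoDox_d2. Krt5 and Krt14 were at most 2.05 CPM in all of these libraries. The part of these markers in the Itgb4 result was not tested.

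Of the leukocyte integrins, Itgb2, Itgam and Itgax were low and rose at day 2, while Itgal was low and not called. Itgb2, the β chain of leukocyte integrins, stood at 1.81, 1.80 and 1.77 RPKM in D1Dox_d2, against 0.925, 0.246 and 0.134 RPKM in NoDox_d2. Every D1Dox_d2 library was higher (log2 fold change 2.03 ± 0.68, SE, edgeR adjusted p = 0.0442), 3.22 without NoDox_d2 replicate 1, and an adjusted p of 0.0529 to 0.140 in 8 of the 12 fits that leave out a library. Of its partners, Itgam held 52, 42 and 27 counts in D1Dox_d2, against 10, 9 and 8 counts in NoDox_d2, and Itgax held 69, 51 and 27 counts in D1Dox_d2, against 9, 8 and 3 counts in NoDox_d2. Both were called in all 12 of those fits, with log2 fold changes of 2.25 ± 0.47 for Itgam (SE; edgeR adjusted p = 0.00488) and 2.95 ± 0.59 for Itgax (SE, edgeR adjusted p = 0.00371). Gene models on the same strand overlap 68.7% of the Itgam exon bases, so its count is uncertain. Itgal, another partner of Itgb2, held 23, 31 and 28 counts in D1Dox_d2, against 9, 8 and 23 counts in NoDox_d2. The platelet and blood markers summed to 26.0 to 31.4 CPM in D1Dox_d2, against 1.56 to 5.65 CPM in NoDox_d2: all 3 tested markers (Ptprc, Runx1 and Pf4) rose, while Gp1bb, Hbb-bh1 and Hba-x were at 0 in both groups. Most of that sum is Runx1, with 21.5 to 26.4 CPM in D1Dox_d2, against 1.15 to 4.24 CPM in NoDox_d2. Ptprc and Pf4 were at most 3.52 CPM in these libraries. The part of these markers in the leukocyte integrin result was not tested. The endothelium markers summed to 35.4 to 41.2 CPM in D1Dox_d2, against 3.24 to 9.18 CPM in NoDox_d2, with 4 of 5 tested markers higher. In D1Dox_d2 most of that sum is Kdr, at 20.5 to 24.6 CPM. Cdh5 stood at 0.492 to 0.693 CPM in D1Dox_d2, against 0.0791 to 2.51 CPM in NoDox_d2.

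Among the laminins called at day 2, Lamc1, part of most laminins, was the most abundant. It stood at 56.0, 67.3 and 67.2 RPKM in D1Dox_d2, against 28.6, 30.1 and 27.7 RPKM in NoDox_d2. These groups are apart by a fold of 2.20 (log2 fold change 1.14 ± 0.14, SE, edgeR adjusted p = 0.000189). The β chains were not called: Lamb1 stood at 31.6, 34.9 and 33.2 RPKM in D1Dox_d2, against 48.9, 18.3 and 19.4 RPKM in NoDox_d2. Replicate 1 of NoDox_d2 lay above all D1Dox_d2 libraries, and the log2 fold change was 0.20 ± 0.38 (SE, edgeR adjusted p = 0.724), or 0.81 ± 0.08 (SE, edgeR adjusted p = 1.44e-06) without both NoDox libraries numbered 1. Lamb2 stood at 10.97, 12.02 and 11.75 RPKM in D1Dox_d2, against 5.61, 9.33 and 8.60 RPKM in NoDox_d2, and was not called (edgeR adjusted p = 0.0875) although the groups do not overlap.

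Of the laminin α chains, Lama4, the chain of vessel and mesenchymal laminins, stood at 2.79, 3.14 and 3.36 RPKM in D1Dox_d2, against 1.89, 2.07 and 2.16 RPKM in NoDox_d2. The groups do not overlap (log2 fold change 0.60 ± 0.18, SE, edgeR adjusted p = 0.0298), and the adjusted p was 0.0511 to 0.115 in the fits without a D1Dox_d2 or NoDox_d2 library. Lama5, the most abundant α chain, stood at 18.05, 22.47 and 20.88 RPKM in D1Dox_d2, against 24.0, 18.4 and 17.8 RPKM in NoDox_d2, and was not called (log2 fold change 0.03 ± 0.19, SE, edgeR adjusted p = 0.930). Lama1, the α chain of the earliest embryonic basement membranes, stood at 1.36, 1.62 and 1.59 RPKM in D1Dox_d2, against 2.02, 1.05 and 0.814 RPKM in NoDox_d2, and was not called either (edgeR adjusted p = 0.578). For both the groups overlap. Lama2, the α chain of muscle laminin, held 60, 65 and 144 counts in D1Dox_d2, against 16, 19 and 15 counts in NoDox_d2 (log2 fold change 2.56 ± 0.52, SE, edgeR adjusted p = 0.00405, and 1.97 without D1Dox_d2 replicate 3). Lama3, an epithelial chain, held 39, 71 and 43 counts in D1Dox_d2, against 31, 10 and 6 counts in NoDox_d2 (log2 fold change 1.84 ± 0.53, SE, edgeR adjusted p = 0.0237). Its adjusted p was 0.0548 to 0.0987 when replicate 2 or 3 of D1Dox_d2 or of NoDox_d2 was left out.

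Marker sums of cells that make matrix moved with the laminin and integrin changes at day 2. The 8 fibroblast markers summed to 1610 to 1970 CPM in D1Dox_d2, against 205 to 315 CPM in NoDox_d2, with 7 of 8 higher and none at 0. The 10 extraembryonic endoderm markers summed to 806 to 865 CPM in D1Dox_d2, against 398 to 423 CPM in NoDox_d2, with 3 of 8 tested markers higher (Sparc, Gata6 and Thbd), and Ttr at 0 in NoDox_d2. Most of that sum is Sparc, also a basement membrane gene below, with 728 to 784 CPM in D1Dox_d2, against 349 to 392 CPM in NoDox_d2, while Gata4, Sox17, Sox7, Afp, Ttr and Amn were under 2 CPM in all of these libraries. Dab2 stood at 29.3, 29.4 and 34.8 CPM in D1Dox_d2, against 23.0, 54.4 and 42.4 CPM in NoDox_d2, and was not called. Without both NoDox libraries numbered 1, 5 of the 8 tested extraembryonic endoderm markers rose and 1 fell, beside 26.8% and 26.4% of all genes. The part of the fibroblast and extraembryonic endoderm markers in the member results was not tested.

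At day 4 fewer members differed with Dox. Against 13.4% of all genes tested that rose and 10.2% that fell (23.5% either way), 3 of 35 members rose and 4 fell in D3Dox_d4 against NoDox_d4, and the median log2 fold change was 0.03, against -0.03 over all genes. Without both NoDox libraries numbered 1, 7 rose and 6 fell, beside 20.6% and 17.9% of all genes (38.5% either way). Both Dox comparisons use their own control group.

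Itga5 and Itga4 rose again. Itga5 stood at 22.3, 24.0 and 24.2 RPKM in D3Dox_d4, against 18.8, 13.6 and 14.1 RPKM in NoDox_d4, without overlap (log2 fold change 0.60 ± 0.12, SE, edgeR adjusted p = 0.00362). Itga4 stood at 0.344, 0.441 and 0.475 RPKM in D3Dox_d4, against 0.226, 0.113 and 0.110 RPKM in NoDox_d4, also without overlap. Its log2 fold change was 1.49 ± 0.38 (SE, edgeR adjusted p = 0.0154), with an adjusted p of 0.0554 to 0.0594 without D3Dox_d4 replicate 3 or NoDox_d4 replicate 2 or 3. Lama2 had the largest called change of any member, 53, 124 and 125 counts in D3Dox_d4 against 3, 9 and 3 counts in NoDox_d4. Its log2 fold change was 4.23 ± 0.60 (SE, edgeR adjusted p = 0.00046), and 4.98 without NoDox_d4 replicate 2, with few counts on the NoDox side. Lama2 lies under the level set for members described in each library and was picked after its values were seen.

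Itga6, Itga8, Itgae and Lama1 fell at day 4. Lama1 stood at 1.56, 1.81 and 2.20 RPKM in D3Dox_d4, against 5.67, 3.72 and 4.83 RPKM in NoDox_d4, without overlap (log2 fold change -1.35 ± 0.29, SE, edgeR adjusted p = 0.00581). Itga8 stood at 0.545, 0.776 and 0.605 RPKM in D3Dox_d4, against 3.98, 1.14 and 1.36 RPKM in NoDox_d4. All D3Dox_d4 libraries were lower, and the log2 fold change was -1.75 ± 0.41 with all libraries (SE; edgeR adjusted p = 0.00928) and -0.96 without NoDox_d4 replicate 1. Itga6 stood at 12.6, 14.7 and 14.9 RPKM in D3Dox_d4, against 16.3, 18.1 and 17.6 RPKM in NoDox_d4 (log2 fold change -0.30 ± 0.10, SE, edgeR adjusted p = 0.0421). Itgae, which pairs with Itgb7 to bind E-cadherin, had 22 to 26 counts in D3Dox_d4, against 35 to 48 counts in NoDox_d4 (log2 fold change -0.89 ± 0.28, SE, edgeR adjusted p = 0.0396). Both calls were lost in several fits that leave out a library, with adjusted p up to 0.127 for Itga6 and 0.117 for Itgae.

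Lamc1, Itgb1, Itgav and Itga3, which rose at day 2, were not called at day 4. Lamc1 stood at 15.6, 20.2 and 21.6 RPKM in D3Dox_d4, against 23.7, 17.8 and 18.6 RPKM in NoDox_d4, and Itgb1 at 94.5, 90.5 and 97.04 RPKM in D3Dox_d4, against 102, 91.0 and 83.9 RPKM in NoDox_d4. These groups overlap, with log2 fold changes of -0.06 ± 0.14 for Lamc1 and 0.03 ± 0.09 for Itgb1 (SE, edgeR adjusted p = 0.795 and 0.872). Itgav stood at 5.73, 5.69 and 5.92 RPKM in D3Dox_d4, against 6.57, 4.73 and 4.40 RPKM in NoDox_d4, and Itga3 at 4.47, 5.71 and 5.95 RPKM in D3Dox_d4, against 3.56, 6.57 and 7.93 RPKM in NoDox_d4. Neither was called with all libraries, while without both NoDox libraries numbered 1 Itgav was higher by a log2 fold change of 0.34 (edgeR adjusted p = 0.00897) and Itga3 lower by -0.43 (edgeR adjusted p = 0.0173). Itgb8 stood at 5.54, 6.33 and 5.87 RPKM in D3Dox_d4, against 3.64, 11.2 and 12.3 RPKM in NoDox_d4. Its log2 fold change was -0.61 ± 0.34 with all libraries (SE; edgeR adjusted p = 0.223) and -0.99 (edgeR adjusted p = 4.08e-06) without them. The fibroblast markers summed to 415 to 493 CPM in D3Dox_d4, against 550, 124 and 127 CPM in NoDox_d4. Of these 8 markers, 1 rose and 2 fell with all libraries, and 5 rose and 2 fell without both NoDox libraries numbered 1. Most of the D3Dox_d4 sum is Col1a2, with 307 to 370 CPM, against 39.8 to 49.6 CPM in NoDox_d4. The extraembryonic endoderm markers summed to 285 to 315 CPM in D3Dox_d4, against 278 to 296 CPM in NoDox_d4.

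The effect of Dox at day 4 minus that at day 2 was tested directly. It was lower for 5 of 35 members and higher for none, beside 6.24% of all genes lower and 6.66% higher (12.9% either way), with a median log2 difference of -0.76 for the members and 0.00 over all genes. The 5 are Itgav at -1.64 ± 0.37 (edgeR adjusted p = 0.0169), Lama1 at -1.59 ± 0.41 (edgeR adjusted p = 0.0267), Itga3 at -1.45 ± 0.36 (edgeR adjusted p = 0.0242), Lamc1 at -1.20 ± 0.20 (edgeR adjusted p = 0.00391) and Itga5 at -1.05 ± 0.17 (edgeR adjusted p = 0.00321), on the log2 scale with SE. The differences for Itga5, Itgav and Lamc1 held in all 12 fits that leave out a library. Those for Itga3 and Lama1 were lost in 6 fits each, at adjusted p up to 0.0624 and 0.068. Without both NoDox libraries numbered 1, 16 members were lower and none higher, beside 15.8% lower and 18.7% higher of all genes (34.5% either way). This comparison shares all groups with the comparisons above.

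Between day 2 and day 4 without Dox, 3 members rose and 8 fell in NoDox_d4 against NoDox_d2, beside 5.09% of all genes that rose and 5.55% that fell (10.6% either way), with a median log2 fold change of -0.48 for the members and 0.02 for all genes. Without both NoDox libraries numbered 1, 15 were called (4 higher and 11 lower), beside 24.4% of all genes. Lama1 had the largest called rise, with 5.67, 3.72 and 4.83 RPKM in NoDox_d4 against 2.02, 1.05 and 0.814 RPKM in NoDox_d2. The groups do not overlap (log2 fold change 1.87 ± 0.29, SE, edgeR adjusted p = 0.00244). Itgb8 rose by a log2 fold change of 1.26 ± 0.34 (edgeR adjusted p = 0.0384), with 3.64, 11.2 and 12.3 RPKM in NoDox_d4 against 2.91, 4.59 and 3.86 RPKM in NoDox_d2. These groups overlap through NoDox_d4 replicate 1, and the call held in 1 of the 12 fits that leave out a library, with an adjusted p up to 0.151. Another that rose was Itga9, whose chain binds tenascin and Vcam1, by a log2 fold change of 1.59 ± 0.36 (edgeR adjusted p = 0.0164) with 1256, 403 and 444 counts in NoDox_d4 against 280, 248 and 214 counts in NoDox_d2. Without NoDox_d4 replicate 1 the Itga9 value was 0.86.

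Among the 8 that fell, Lama4 stood at 1.10, 0.633 and 0.688 RPKM in NoDox_d4, against 1.89, 2.07 and 2.16 RPKM in NoDox_d2 (log2 fold change -1.34 ± 0.19, SE, edgeR adjusted p = 0.00134). These groups do not overlap. Further members that fell were Lamb3 at -1.28, Itgb5 at -0.82, Lama5 at -0.71, Lamc1 at -0.53, Itga6 at -0.48 and Itgb1 at -0.34, all log2 fold changes with edgeR adjusted p of 0.00903 to 0.0402. Equally numbered libraries of these groups deviated together, although libraries 2 and 3 deviated about as much with each other's number as with their own. The values above take no account of this, and fits with the replicate number as a block are given beside them. With the replicate number as a block in all libraries, Itgb1, Lama5 and Lamc1 had adjusted p of 0.0519, 0.053 and 0.0581, and with the block in the NoDox libraries alone, Itgb1 and Lamb3 had 0.0663 and 0.0846. Without the block, the 6 NoDox libraries alone gave 0 calls among 31 members tested, 12 of them at an unadjusted p under 0.05. No share of all genes is given for that fit, so the 0 cannot be read as a result about the members. DESeq2 with all libraries called 12 members, beside 15.3% of all genes.

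The chains differ in how their shares of RNA were spread over the groups. Among all integrin α chains, Itga5 held 46.6% to 48.3% of the summed RPKM in D1Dox_d2, against 27.7% to 30.3% in NoDox_d2, and 41.8% to 43.7% in D3Dox_d4, against 27.6% to 32.4% in NoDox_d4. Itga6 held 15.7% to 15.8% in D1Dox_d2, against 34.9% to 40.7% in NoDox_d2, and 24.7% to 26.1% in D3Dox_d4, against 28.1% to 36.8% in NoDox_d4. Itga5 was thus the leading α chain in all Dox libraries, and its share did not overlap between Dox and NoDox on either day. Itgb1 held 72.6% to 80.7% of the β chain RPKM in all 12 libraries. The ratio of Itga5 to Itga6 was 1.62 to 1.77 in D3Dox_d4, against 0.749 to 1.15 in NoDox_d4. These shares are a description, as a change in 1 chain moves those of the others.

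Among the laminin α chains, Lama5 held 79.1% to 81.3% in D1Dox_d2, against 85.2% to 85.6% in NoDox_d2, and 75.9% to 82.6% in D3Dox_d4, against 66.4% to 71.6% in NoDox_d4. Lama1 held 11.1% to 15.1% in D3Dox_d4, against 24.0% to 28.0% in NoDox_d4. Lamb1 held 73.4% to 73.9% of the laminin β RPKM in D1Dox_d2, against 89.0%, 65.6% and 68.7% in NoDox_d2, and 54.1% to 57.8% in D3Dox_d4, against 77.9%, 46.8% and 44.6% in NoDox_d4. Replicate 1 of each NoDox group lies outside the others there.

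**Figure D3:**
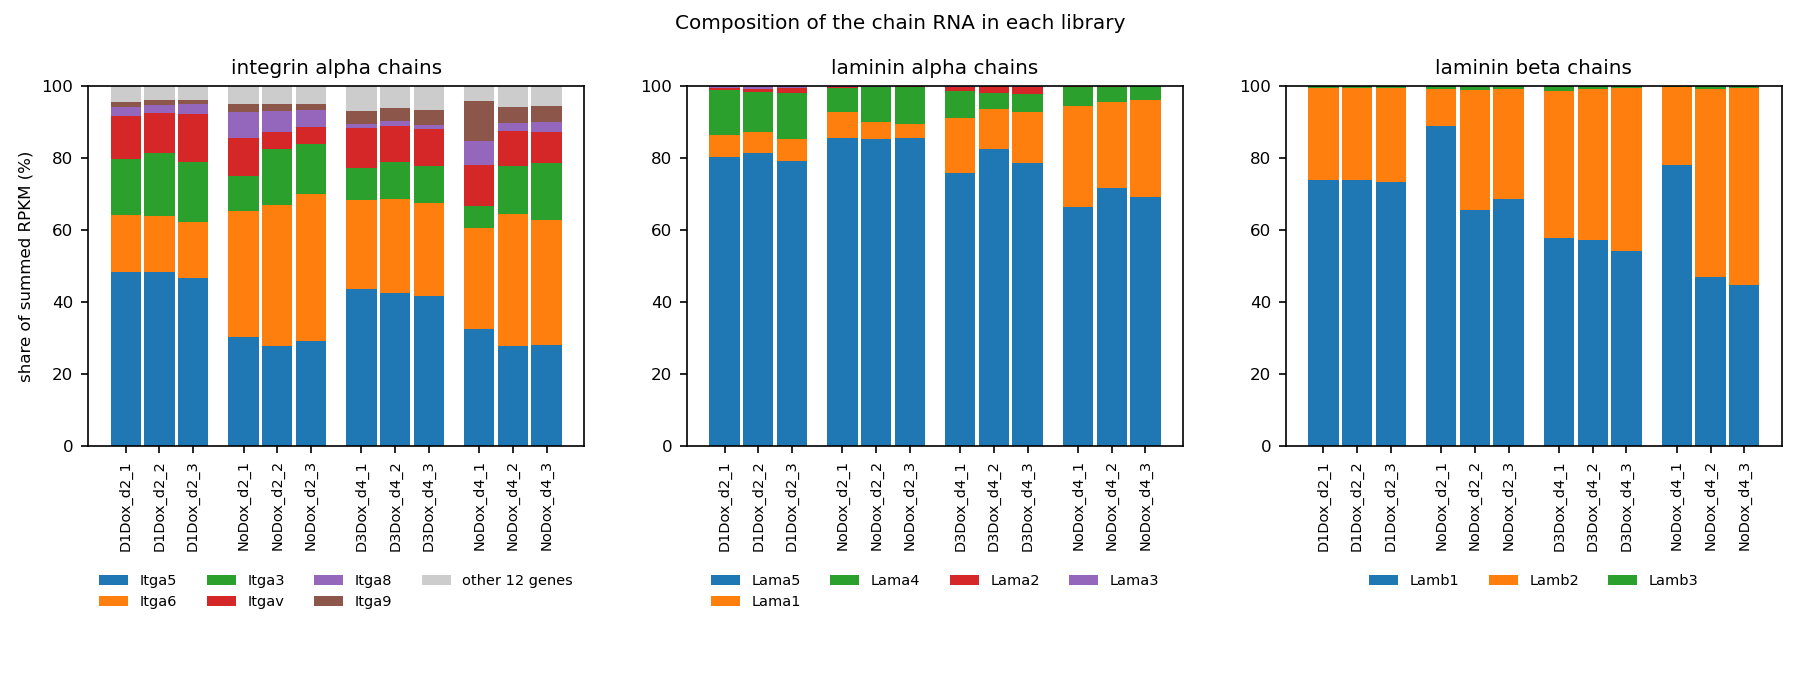
Share of each chain in the summed RPKM (%) of integrin α, laminin α and laminin β genes, with a bar for each of the 12 libraries in order of group and replicate; the 12 integrin α genes of lowest level are summed in grey. Itga5 takes a larger part of the α chain RNA in all Dox libraries than in NoDox libraries, and Lamb1 takes 89.0% and 77.9% in the NoDox libraries numbered 1.

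Genes that work with the members gave a mixed picture, on lists written for this description. Their counts stand beside 14.9% of all genes higher and 13.4% lower at day 2, and 13.4% higher and 10.2% lower at day 4. With both NoDox libraries numbered 1 left out, these shares were 26.8% and 26.4% at day 2, and 20.6% and 17.9% at day 4. Of 27 tested other integrin ligands, 19 rose and 2 fell at day 2 (median log2 fold change 1.60) and 6 rose and 10 fell at day 4 (median 0.08). With those libraries left out, 21 of 29 rose and 2 fell at day 2, and 12 rose and 10 fell at day 4. Col1a2, a chain of type I collagen, averaged 694 ± 79.4 CPM in D1Dox_d2 and 68.4 ± 6.52 CPM in NoDox_d2 (SD, n = 3 each; log2 fold change 3.34 ± 0.13, SE, edgeR adjusted p = 4.54e-08), and 343 ± 32.5 CPM in D3Dox_d4 and 44.0 ± 5.05 CPM in NoDox_d4 (SD, n = 3 each; log2 fold change 2.96 ± 0.13, SE). Edil3, an RGD ligand of αv integrins, rose on both days, by log2 fold changes of 2.64 ± 0.23 at day 2 and 3.19 ± 0.23 at day 4 (SE). Postn, another αv ligand, rose by 3.36 ± 0.29 at day 2, and Vtn, the gene of vitronectin, fell by 3.26 ± 0.41 at day 4 on the log2 scale. Col1a1, Col1a2, Col3a1 and Postn are also fibroblast markers above. Vcam1, which binds integrins with the α4 chain, rose by 1.74 ± 0.26 at day 4 (log2, SE), where Itga4 rose as well.

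Of 24 tested other basement membrane genes, 12 rose and 5 fell at day 2 (median 0.58) and 2 rose and 8 fell at day 4 (median -0.41). These were 13 and 7 at day 2, and 5 and 10 at day 4, without both NoDox libraries numbered 1. Col4a1, of type IV collagen, averaged 355 ± 49.1 CPM in D1Dox_d2 and 168 ± 5.97 CPM in NoDox_d2 (SD, n = 3 each; log2 fold change 1.08 ± 0.14, SE, edgeR adjusted p = 0.000237). Sparc, a matrix protein that binds collagen, rose by 1.05 ± 0.09 at day 2. Smoc1 fell by 2.39 ± 0.17 at day 2 and by 1.58 ± 0.16 at day 4 (log2, SE), and Fras1, a protein under the epithelium, fell by 1.48 ± 0.19 at day 2. Frem1, a relative of Fras1, fell by 1.93 ± 0.29 at day 4, Smoc2 fell by 2.56 ± 0.30 and Col18a1 by 0.65 ± 0.10 (log2, SE).

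Inside the cell, 13 of 38 tested adhesome genes rose and 5 fell at day 2 (median 0.31), beside 14.9% and 13.4% of all genes. At day 4, 7 rose and 4 fell (median -0.05), close to the 13.4% and 10.2% of all genes. When both NoDox libraries numbered 1 were left out, 23 rose and 7 fell at day 2, and 9 rose and 5 fell at day 4. Tgfb1i1, an adaptor of adhesion sites, rose by 1.88 ± 0.23 at day 2 and 1.18 ± 0.23 at day 4, and Fermt2, which activates integrins, by 0.62 ± 0.09 and 0.45 ± 0.09 (log2, SE). Parva rose by 0.75 ± 0.09 and Rap1b by 0.66 ± 0.09 at day 2, while Nedd9 fell by 1.62 ± 0.26 and Tns3 by 1.34 ± 0.23 at day 4. Of 9 tested genes of TGF-β and its latency, 4 rose and 0 fell at day 2 (median 1.45): Ltbp1 by 2.03 ± 0.14, Ltbp2 by 2.50 ± 0.32, Ltbp3 by 1.81 ± 0.27 and Tgfb3 by 2.19 ± 0.37. At day 4, 2 rose and 1 fell (median 0.30), with Tgfb3 at 1.79 ± 0.37, Ltbp2 at 1.70 ± 0.36 and Ltbp1 at -0.57 ± 0.13. Leaving out both NoDox libraries numbered 1 gave 8 higher and 1 lower at day 2 (median 2.13), and 5 higher and 1 lower at day 4. Of 18 tested membrane partners of integrins, 7 rose and 0 fell at day 2 (median 0.52) and 7 rose and 1 fell at day 4 (median 0.19). The same omission gave 14 higher and 1 lower at day 2, and 7 higher and 4 lower at day 4. Cd9, a tetraspanin that binds integrins, averaged 295 ± 19.3 CPM in D1Dox_d2 and 58.2 ± 10.7 CPM in NoDox_d2, and 240 ± 20.4 CPM in D3Dox_d4 and 28.2 ± 5.60 CPM in NoDox_d4 (SD, n = 3 each; log2 fold changes 2.34 ± 0.16 and 3.09 ± 0.17, SE). Cd151, a tetraspanin that binds laminin receptors, rose by 0.49 ± 0.11 and 0.63 ± 0.11, and Sdc1, a heparan sulfate proteoglycan, by 1.34 ± 0.19 and 1.01 ± 0.19, in day 2, day 4 order. Cd47 rose by 1.03 ± 0.18 at day 2, and Col17a1, a hemidesmosome collagen at under 2 CPM, by 3.41 ± 0.51 at day 4 (log2, SE, edgeR).

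**Figure D4:**
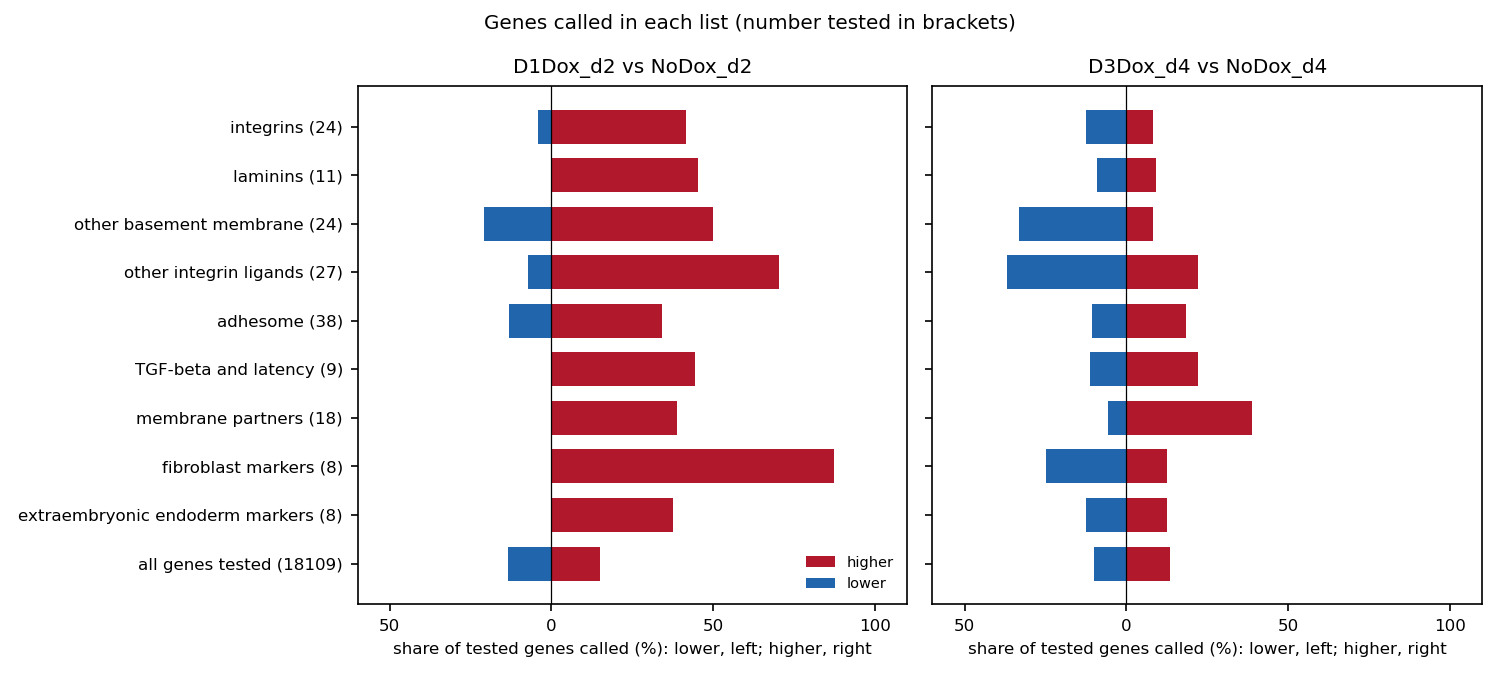
Share of tested genes called higher (right, red) and lower (left, blue) for the integrins, the laminins, 5 related lists, 2 marker lists and all genes tested, D1Dox_d2 against NoDox_d2 on the left and D3Dox_d4 against NoDox_d4 on the right. Integrins (10 of 24) and laminins (5 of 11) rose at day 2 beside 14.9% of all genes.

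The other members stayed low. Itgad and Itgb6 did not pass the filter, with 0 to 2 and 0 to 7 counts in each library, so no value is set against another for them. Itgal, Itga2b, Itga10, Itga11, Itgb7, Lamc3, Itga1 and Itga2 were tested and had no edgeR call on either day with all libraries. Gene models on the same strand overlap 33.5% of the Itga10 exon bases. Itga2, a collagen receptor chain, held 30, 19 and 20 counts in D1Dox_d2, against 15, 1 and 3 counts in NoDox_d2 (log2 fold change 1.98 ± 0.70, SE, edgeR adjusted p = 0.054), while DESeq2 with all libraries called it higher. Without both NoDox libraries numbered 1 its log2 fold change was 3.51 (edgeR adjusted p = 0.00025).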

How the data were processed

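Per the labels' protocols, libraries were made from total RNA with the NEBNext Ultra II kit, read from both ends at 150 bp, and cut by Trim Galore, keeping reads of at least 50 bp. GRCm38 and mm10 are the builds, and STAR, featureCounts and DESeq2 the tools, in the submitters' processing notes. The authors deposited raw counts per gene, which featureCounts 2.0.1 made with GENCODE vM25 and no strand setting, per the file headers, so reads of a gene and its antisense partner are counted alike. Itgad has 12.4% of its exon bases under an opposite-strand gene, and no other member has over 8.04%. Symbols were matched for 55141 of 55487 genes.

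The count table was fitted in R 4.3.3 with edgeR 4.0.16 and its quasi-likelihood F-test (limma 3.58.1 loaded), with TMM, filterByExpr, all 12 libraries and a coefficient for each group. Adjusted p-values are Benjamini-Hochberg over the 18109 genes tested, and the script was tested on simulated data. The SE is |log2 fold change| over √F, which can understate the error where counts are few. RPKM were computed here from these counts and the gene-model lengths in the file. A value of 0 counts allows up to 3 counts, 0.107 to 0.124 CPM, for counting error only.

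The integrin and laminin genes, the gene lists and the rules were chosen with earlier results of these data known. Values in every library are given for members called on either day or in the difference of effects at a mean of 5 CPM or more in the higher group, and for members with a mean of at least 50 CPM over all libraries (18 members, of which 1 is not reported here). Values of other members were picked after they were seen. Of each related list, up to 4 called members with the lowest adjusted p were named. The marker lists are primed epiblast, fibroblast, extraembryonic endoderm, endothelium, platelet and blood, surface epithelium, neural crest and muscle.

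Deviations from the group means correlated at 0.53, 0.34 and 0.29 between equally numbered NoDox_d4 and NoDox_d2 libraries. The main fit does not pair libraries by these numbers, and a replicate block was used only in the alternative fits. Libraries 2 and 3 also correlated across unequal numbers, at 0.29 and 0.39, and library 1 correlated negatively with both. For Dox against NoDox they correlated at -0.10, -0.03 and -0.12 at day 2 and at -0.06, -0.06 and 0.03 at day 4, which is no pairing. Alternatives were other scalings (upper quartile, DESeq2 size factors), no filter, the test of DESeq2 1.42.0, the replicate block, the compared libraries alone, each library left out in turn, and both NoDox libraries numbered 1 left out.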

Additional observations from a re-analysis of the deposited data

Results flagged for a closer look

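The effect of Dox differed between day 4 and day 2 for 5 members, by the test of the difference itself (day 4 effect minus day 2 effect, edgeR, log2 scale). For Itgav the difference was -1.64 (adjusted p = 0.0169), with a Dox effect of 0.14 at day 4 and 1.78 at day 2. For Lama1 it was -1.59 (adjusted p = 0.0267), with effects of -1.35 at day 4 and 0.23 at day 2. For Itga3 it was -1.45 (adjusted p = 0.0242), with effects of -0.16 at day 4 and 1.28 at day 2. For Lamc1 it was -1.20 (adjusted p = 0.00391), with effects of -0.06 at day 4 and 1.14 at day 2. For Itga5 it was -1.05 (adjusted p = 0.00321), with effects of 0.60 at day 4 and 1.65 at day 2. The D number in the group names and the day of harvest differ together between these comparisons. The effect of the day and that of whatever the D number stands for cannot be told apart.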

How the results depend on the processing

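Counts of called members moved with the NoDox libraries numbered 1. Without both, 27 members were called at day 2 (16 with all libraries), 13 at day 4 (7) and 16 for the difference of effects (5). All 16, 7 and 5 members were still called. For NoDox_d4 against NoDox_d2, 10 of 11 were, and Lamb3 was not (adjusted p = 0.125). With only the libraries compared, NoDox_d4 against NoDox_d2 gave 0 calls, against 11, with fewer libraries in the fit and no share of all genes given. The share of all genes called moved as well without both, from 28.4% to 53.2% at day 2. Leaving out each library in turn gave 10 to 19 calls at day 2, 4 to 9 at day 4, 3 to 12 for the difference of effects and 5 to 14 for NoDox_d4 against NoDox_d2. No share of all genes is given for these 12 fits, so the ranges describe the member calls only. In all 12 such fits, 9 of 16 members stayed called at day 2 (among them Itga3, Itga4, Itga5, Itgam, Itgav, Itgax, Lama2 and Lamc1), 4 of 7 at day 4 (Itga5, Itga8, Lama1 and Lama2), 3 of 5 for the difference and 4 of 11 for NoDox_d4 against NoDox_d2 (among them Itga6, Lama1 and Lama4).

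With the replicate number as a block in all libraries, 19 members were called at day 2, 7 at day 4, 6 for the difference and 8 for NoDox_d4 against NoDox_d2, and with the block in the NoDox libraries alone, a fit added after the data were seen, 11. No share of all genes is given for the block fits, so these counts describe the member calls only. The Dox groups share only a number with their NoDox groups, and beyond the calls named in the text the block ended none. Of 39 member results called in the 4 comparisons, none turned its direction under the alternatives tried. DESeq2 size factors, upper-quartile scaling and the DESeq2 test ended no call, no filter on low counts ended 5, and the compared libraries alone ended 15 of 34. Members with few counts (Itgam, Itgax, Itgae, Lama2, Lama3) are limited by depth.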

Other observations

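Marker lists not set beside a member above are given here. Their counts stand beside 14.9% of all genes higher and 13.4% lower at day 2. At day 4 these shares were 13.4% and 10.2%. Of 4 tested neural crest markers, 0 rose and 0 fell at day 2, and 2 rose and 0 fell at day 4, with sums of 45.4 to 49.8 CPM in D1Dox_d2, 38.8 to 55.6 CPM in NoDox_d2, 29.2 to 37.1 CPM in D3Dox_d4 and 20.5 to 26.1 CPM in NoDox_d4. Of 4 tested muscle markers, 1 rose and 1 fell at day 2, and 0 rose and 2 fell at day 4. Their sums were 103 to 121 CPM in D1Dox_d2, 99.1 to 105 CPM in NoDox_d2, 5.90 to 6.83 CPM in D3Dox_d4 and 13.7 to 79.5 CPM in NoDox_d4. Of the 6 primed epiblast markers, 3 fell at day 2 (Sox3, Dnmt3b and Pou5f1) and 4 at day 4, and none rose.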
